A study of Mus musculus with 6 samples.

Results

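The C/EBP, KLF and EBF adipogenic factors are 10 genes for transcription factors that direct the formation of fat cells, and they were followed here in 3T3-L1 cells with and without resveratrol. They were chosen by name: all probe sets that the platform annotation gives to exactly 1 of Cebpa, Cebpb, Cebpd, Klf4, Klf5, Klf15, Ebf1, Ebf2, Egr2 and Zfp423. This gave 22 probe sets of the 45101 on the array, at least 1 for each of the 10 genes among 18193 genes with a probe set of their own, and no probe set named a member together with another gene. 3T3-L1 is an established line of mouse fibroblasts that can be turned into adipocytes in culture, and resveratrol is a polyphenol from plants. RNA from 3 samples labelled untreated (control replicates 1 to 3) and 3 labelled treated (resveratrol replicates 1 to 3) was hybridised to 1 Affymetrix array each. The labels give the same line for both groups and name no dose, duration, vehicle or stage of differentiation, nor whether the samples of a group came from separate cultures. The p-values therefore cover only the spread among these arrays, which may be technical, and the number of arrays limits the precision.

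In the classical scheme of adipogenesis, worked out largely in 3T3-L1 cells, hormonal induction raises C/EBP beta and C/EBP delta early, and these turn on C/EBP alpha and PPAR gamma, which then activate the genes of the mature adipocyte and keep each other expressed. EGR2 (Krox20) and KLF4 act upstream of C/EBP beta, KLF5 lies between the early C/EBPs and PPAR gamma, and KLF15 acts late and raises the insulin-responsive glucose transporter GLUT4. ZFP423 commits precursor cells to the fat lineage, EBF1 promotes fat formation, and EBF2 is known for brown fat identity.

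Resveratrol-treated cells had more Cebpd and less Klf15, Ebf2 and Cebpb transcript, while no difference in Cebpa, Klf4, Klf5, Ebf1, Egr2 or Zfp423 passed the test at the probe set with the highest mean signal of each gene. Values are linear intensities, and differences are resveratrol minus control on the scale of log2(intensity + 16), tested with limma and adjusted over the 27022 probe sets tested, with a threshold of 0.05. Of the 22 probe sets, 20 passed the filter on low values. Among these 20, 5 passed, 1 higher and 4 lower, where 8.17% of all probe sets tested passed, 3.95% higher and 4.22% lower. Counted by gene, with the brightest probe set of each, 4 of 10 passed, 1 higher and 3 lower, where 10.5% of the 12630 genes tested passed, 5.32% higher and 5.21% lower. The median difference of the 10 genes was -0.12, and that of all genes tested was 0.0194. The 3 control and 3 resveratrol arrays did not overlap for 13 of the 20 probe sets and 7 of the 10 genes, where this held for 26.4% of all probe sets and 30.2% of all genes tested.

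**Figure D1:**
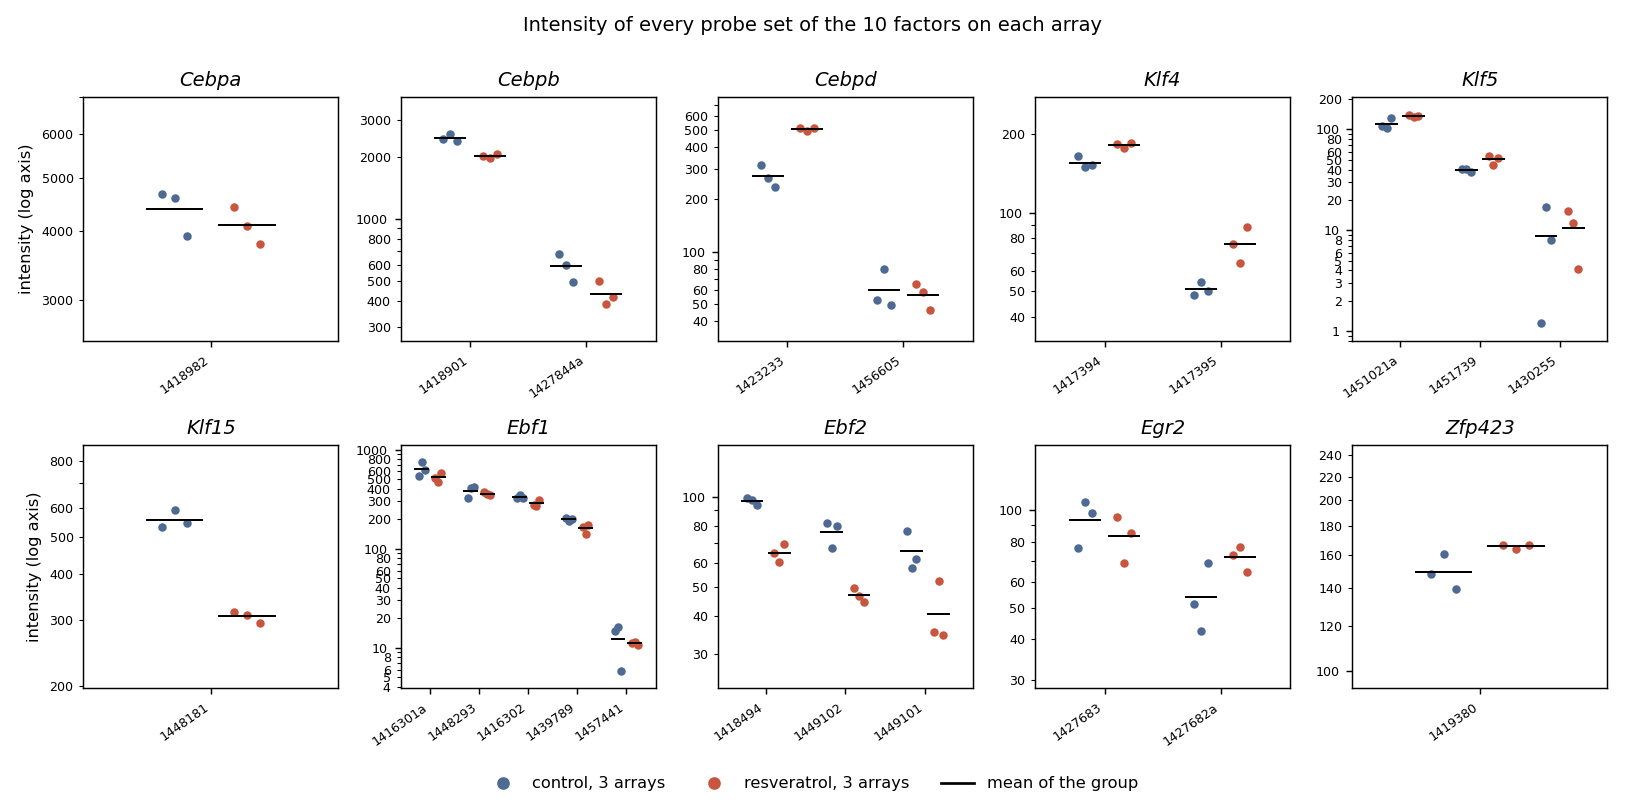
Intensity of each of the 22 probe sets on each of the 6 arrays, in a panel per gene with a log axis, where blue points are control arrays, red points resveratrol arrays and black bars group means. The resveratrol points lie above all control points for the left Cebpd probe set and below them for Klf15 and for the 3 Ebf2 probe sets.

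The region upstream of the annotated start was read for the members found in a RefSeq table of promoters (build GRCm38.p6), which held 7 of the 10 genes. The 250 bases before the start are shown for Cebpb and Klf15, which both fell, and for Cebpa, which did not pass, because CREB, the factor activated by cyclic AMP, is known to switch on Cebpb at the start of adipogenesis. Capitals mark the CREB core motif TGACG on either strand (CGTCA on the other).
Cebpb, chr2:167688665-167688914, plus strand: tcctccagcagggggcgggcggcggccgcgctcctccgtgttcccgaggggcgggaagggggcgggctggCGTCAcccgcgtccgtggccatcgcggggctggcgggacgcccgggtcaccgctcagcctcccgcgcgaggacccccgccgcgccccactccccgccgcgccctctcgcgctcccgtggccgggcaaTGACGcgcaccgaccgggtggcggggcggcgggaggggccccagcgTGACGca
Klf15, chr6:90462326-90462575, plus strand: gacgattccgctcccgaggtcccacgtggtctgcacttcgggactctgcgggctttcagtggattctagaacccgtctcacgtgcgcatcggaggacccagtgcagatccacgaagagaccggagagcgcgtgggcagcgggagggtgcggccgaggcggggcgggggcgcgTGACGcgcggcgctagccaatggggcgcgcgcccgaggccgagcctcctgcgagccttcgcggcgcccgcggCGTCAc
Cebpa, chr7:35119043-35119292, plus strand: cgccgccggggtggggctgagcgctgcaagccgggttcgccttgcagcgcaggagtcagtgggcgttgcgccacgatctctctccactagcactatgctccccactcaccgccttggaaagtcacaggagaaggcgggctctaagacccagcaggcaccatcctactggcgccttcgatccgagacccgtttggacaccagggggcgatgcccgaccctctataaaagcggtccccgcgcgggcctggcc
The Cebpb window holds 3 of these motifs, 180, 53 and 7 bases before the start at their far ends, and the Klf15 window 2, at 78 and 6 bases. None of these letters stands in the Cebpa window, and 17.8% of the 32851 windows in the table hold at least 1. The motif also stands 1 time in the window of Klf4 and 2 times in each of 3 overlapping windows of Egr2. Neither gene passed at its brightest probe set. No window was available for Ebf2, which also fell, nor for Cebpd and Klf5. Whether the motif goes with the differences was not tested. The windows of Cebpb and Klf15 are rich in G and C (81.6% and 72.0%, against 66.4% for Cebpa). The C/EBP motif TTGCNNAA, with N for any base, on either strand was in none of the 3 windows printed above and in 9.56% of all. The CACCC box of KLF and SP factors, on either strand, occurred 2 times for Cebpb, 1 time for Klf15 and 1 time for Cebpa, and 52.0% of all windows have it. In the Cebpb window 1 CACCC box shares bases with a CREB motif. These matches describe the sequence only.

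The cells carried the markers of adipocytes. The summed intensity of the 4 adipocyte markers with a probe set (Adipoq, Fabp4, Cidec and Lipe) lay between 21690 and 32872 on control arrays and between 20338 and 25209 on resveratrol arrays. Of these 4, Cidec fell and 3 did not pass. Plin1 and Cfd had no probe set that names them alone. For 7 preadipocyte and fibroblast markers the sum lay between 11457 and 11719 in control and between 10234 and 11888 in treated samples, with Thy1 higher and 5 of the 6 tested not passing. Thy1, a surface protein of fibroblasts, had 905, 969 and 878 in control and 1230, 1156 and 1247 in treated samples (0.40 ± 0.07, adjusted p = 0.0078, and 0.00926 with the spike set described below as a block). Col1a1, of the same list, went the other way without overlap, with 4261, 4816 and 4397 in control and 3842, 3132 and 3812 in treated samples. It did not pass (-0.32, adjusted p = 0.0757). Pdgfrb and Dlk1 had higher means, and Pdgfra and Sox9 lower ones. The median difference of the 6 tested was 0.0036. The sum of 8 macrophage markers was 305 to 397 in control and 404 to 470 in treated samples, without overlap of the groups, with Cd14 higher, 5 markers not passing, and Ptprc and Itgam too dim to test. Means were higher for Cd14 (86.3 in control and 126 in treated samples), Lyz2 (59.5 and 85.9), Csf1r, Cd68 and Itgam. They were lower for Fcgr1 (33.5 and 27.6), Adgre1 (42.4 and 40.6) and Ptprc (10.6 and 6.4). Sums over 5 endothelial markers (82.7 to 123 over all arrays) and 6 skeletal muscle markers (229 to 297) overlapped between the groups. The part that other cells may have in the differences below was not tested. In RNA from whole cultures, fewer cells that express a gene and less of its RNA per cell cannot be told apart. The array's control probe sets for bacterial and phage spikes were brighter on control replicates 1 and 2 and resveratrol replicate 1 (mean log2 signal 10.74 to 11.03) than on the other 3 arrays (10.01 to 10.29). For some of the genes below, differences are therefore also given within each of these sets, with the set as a block, or both. The sum of the adipocyte markers was also higher on the 3 arrays of brighter spikes (25209 to 32872) than on the other 3 (20338 to 21690).

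Cebpd, which encodes C/EBP delta, an early bZIP factor of adipogenesis that is also an acute-phase and glucocorticoid-induced gene, rose. Probe set 1423233_at had intensities of 314, 266 and 235 in control replicates 1 to 3 and of 515, 496 and 514 in resveratrol replicates 1 to 3. Every treated sample was above every control, and the treated samples lay close together. The mean went from 272 ± 39.8 to 508 ± 10.5 (SD, n = 3), a ratio of 1.87, and the log2 difference was 0.87 ± 0.10 (SE) with adjusted p = 0.000398. This was the rise of rank 35 among the 12630 genes tested. Within the arrays of brighter spikes it was 0.80, within those of dimmer spikes 1.05, and with the set as a block 0.93 (adjusted p = 0.000592). It passed in each of the 6 fits with 1 array left out, at 0.78 to 0.98. The gene's other probe set, 1456605_at, was dim, at 53.1, 79.6 and 49.1 in control and 64.9, 59.0 and 46.1 in treated samples. It overlapped between the groups, and its difference was -0.06 ± 0.18 (adjusted p = 0.887, 95% confidence interval -0.45 to 0.33), an interval that does not reach the rise of the brighter probe set. The mean of both probe sets still passed, at 0.41 (adjusted p = 0.0313).

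Cebpb, which encodes C/EBP beta, the partner of C/EBP delta in the early wave, moved the other way. Probe set 1418901_at had 2428, 2587 and 2388 in control and 2018, 1982 and 2063 in treated samples. The groups did not overlap, although the treated mean was still 0.819 of the control mean. The log2 difference was -0.29 ± 0.07 (SE, adjusted p = 0.0371). It was -0.31 where the spikes were bright, -0.24 where they were dim and -0.27 with the block (adjusted p = 0.0369). Its second probe set, 1427844_a_at, had 680, 602 and 494 in control and 500, 386 and 422 in treated samples. Here the lowest control array lay just below the highest treated array, and the difference of -0.42 ± 0.12 did not pass (adjusted p = 0.0567). The mean of both probe sets passed, at -0.35 (adjusted p = 0.0201). The call of the brighter probe set held in 1 of 6 fits with an array left out, the one without control replicate 3. Without control replicate 1, control replicate 2, or resveratrol replicates 1, 2 or 3 the adjusted p was 0.0691, 0.135, 0.118, 0.145 and 0.0816. The call was also lost without a filter (adjusted p = 0.0708), without an intensity trend (0.127) and with the replicate block (0.067).

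Cebpa, which encodes C/EBP alpha, the factor that maintains the adipocyte state together with PPAR gamma, had 4670, 4604 and 3929 in control and 4431, 4093 and 3798 in treated samples. The groups overlapped. The log2 difference was -0.10 ± 0.10 (adjusted p = 0.637), and its 95% confidence interval of -0.31 to 0.12 leaves room for a fall about as large as that of Cebpb. It was -0.07 within the arrays of brighter spikes, 0.005 within those of dimmer spikes and -0.03 with the set as a block (adjusted p = 0.85). With quantile normalization it was -0.0027, and without control replicate 3 it was -0.18 (adjusted p = 0.251). Across the 3 C/EBP genes the ratio of signals within an array was also compared. The log2 ratio of Cebpd over Cebpb was higher by 1.16 ± 0.12 (SE, n = 3) with resveratrol, and that of Cebpd over Cebpa by 0.97 ± 0.09, with no overlap between the groups. For each the 2-sided exact permutation p was 0.1 (no smaller p can come from 3 against 3 arrays), and 0.175 after adjustment over the 7 ratios compared in all. The ratio of Cebpb over Cebpa had a difference of -0.19 ± 0.10 and overlapped between the groups (exact permutation p = 0.2, adjusted p = 0.28).

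Klf15, the late-acting Krüppel-like factor that raises GLUT4 in adipocytes and controls amino acid catabolism in liver and muscle, fell more deeply than any other of the 10 genes at its brightest probe set. Its only probe set, 1448181_at, had 532, 590 and 545 in control and 317, 311 and 296 in treated samples. The highest treated array was far below the lowest control array. The mean went from 556 ± 30.3 to 308 ± 10.7 (SD, n = 3), a ratio of 0.554, with a log2 difference of -0.82 ± 0.08 (SE) and adjusted p = 0.00012, the fall of rank 137 among 12630 genes. It was -0.79 within the arrays of brighter spikes, -0.81 within those of dimmer spikes and -0.80 with the set as a block (adjusted p = 0.000521), and it passed in each of 6 fits with 1 array left out, at -0.85 to -0.78.

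Klf4 and Klf5, the Krüppel-like factors of the early phase, had higher means with resveratrol at each tested probe set, without passing. Klf4, an activator of Cebpb, had 164, 150 and 152 in control and 184, 176 and 185 in treated samples at 1417394_at, a difference of 0.21 ± 0.09 (adjusted p = 0.212). At 1417395_at it had 48.4, 54.4 and 50.3 against 75.9, 64.1 and 87.9, a difference of 0.45 ± 0.14 (adjusted p = 0.0811). In both probe sets every treated array exceeded every control array, and the mean of both passed, at 0.33 (adjusted p = 0.0421). Klf5, which activates Pparg, had 107, 103 and 130 in control and 139, 132 and 137 in treated samples at 1451021_a_at, a difference of 0.24 ± 0.11 (adjusted p = 0.252, 95% confidence interval -0.01 to 0.48). This was 0.36 within the arrays of brighter spikes and 0.0382 within those of dimmer spikes. Its probe set 1451739_at had 40.5, 40.7 and 38.0 against 55.1, 44.7 and 51.8, a difference of 0.25 ± 0.14 (adjusted p = 0.351). The remaining Klf5 probe set, 1430255_at, was between 1.2 and 17.2 on every array and was not tested. The groups thus lay apart at both tested probe sets of each gene, by margins of a few units at some of them. The log2 ratio of Klf15 over Klf4 differed by -1.03 ± 0.09 (SE) and that of Klf15 over Klf5 by -1.06 ± 0.12, resveratrol minus control, without overlap of the groups (exact permutation p = 0.1 each, adjusted p = 0.175), while that of Klf4 over Klf5 differed by -0.0292 ± 0.11 (exact permutation p = 0.9).

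Ebf2, the EBF factor of brown fat identity, had lower means at all 3 of its probe sets, and 2 of them passed. Probe set 1418494_at had 99.3, 97.2 and 93.8 in control and 64.8, 60.9 and 69.5 in treated samples, a ratio of 0.673 and a log2 difference of -0.48 ± 0.12 (SE, adjusted p = 0.0304). Probe set 1449102_at had 82.0, 67.6 and 80.0 against 49.6, 46.8 and 44.6, with -0.55 ± 0.13 (adjusted p = 0.0286). Probe set 1449101_at had 77.2, 58.1 and 62.3 against 35.5, 52.4 and 34.6, and its -0.53 ± 0.17 did not pass (adjusted p = 0.0794). At each of the 3 the treated arrays lay below all control arrays. With the spike set as a block the first 2 had -0.47 (adjusted p = 0.0572) and -0.55 (adjusted p = 0.051). Where the spikes were bright they had -0.50 and -0.46, and where dim -0.44 and -0.64. The brightest probe set passed in 0 of 6 fits with an array left out, at -0.52 to -0.44 with adjusted p from 0.0525 to 0.111, and 1449102_at in 1 of 6, the one without control replicate 2. The brightest probe set also did not pass without a filter (adjusted p = 0.0597) or with the replicate block (0.0582). The mean of the 3 probe sets passed, at -0.52 (adjusted p = 0.0125).

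Ebf1, the family member that promotes fat formation more generally, had 5 probe sets, of which 4 were tested and none passed. The brightest, 1416301_a_at, had 542, 747 and 627 in control and 521, 471 and 574 in treated samples, a difference of -0.28 ± 0.11 (adjusted p = 0.181, 95% confidence interval -0.53 to -0.03). Differences of the other 3 were -0.08 ± 0.10 at 1448293_at, -0.20 ± 0.09 at 1416302_at and -0.29 ± 0.10 at 1439789_at, with adjusted p = 0.714, 0.206 and 0.117. At the last of these, 203, 189 and 200 in control stood against 165, 140 and 174 in treated samples, and at 1416302_at the groups also lay apart, while at the other 2 they overlapped. Within the arrays of brighter and of dimmer spikes the brightest probe set had -0.28 and -0.26, and 1448293_at had 0.03 and -0.24. The fifth probe set, 1457441_at, had 5.8 to 16.3 and was not tested. The log2 ratio of Ebf2 over Ebf1 differed by -0.20 ± 0.14 (SE, exact permutation p = 0.3, adjusted p = 0.35), so a difference in response between these genes was not shown.

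Egr2 and Zfp423, the factors that act earliest, did not pass. The probe sets of Egr2 pointed in opposite directions: 1427683_at had 76.3, 106 and 98.1 in control and 95.3, 68.8 and 85.4 in treated samples (-0.14 ± 0.15, adjusted p = 0.656), and 1427682_a_at had 51.3, 42.4 and 68.6 against 73.0, 77.3 and 64.5 (0.34 ± 0.16, adjusted p = 0.253). Both overlapped between the groups, and the mean of both was 0.10 (adjusted p = 0.664). Within the arrays of brighter and of dimmer spikes 1427683_at had 0.07 and -0.30, and 1427682_a_at had 0.51 and 0.03. Zfp423 had 148, 161 and 140 in control and 167, 164 and 167 in treated samples. These groups lay apart by a small margin, with a difference of 0.14 ± 0.09 (adjusted p = 0.452, 95% confidence interval -0.07 to 0.35).

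**Figure D2:**
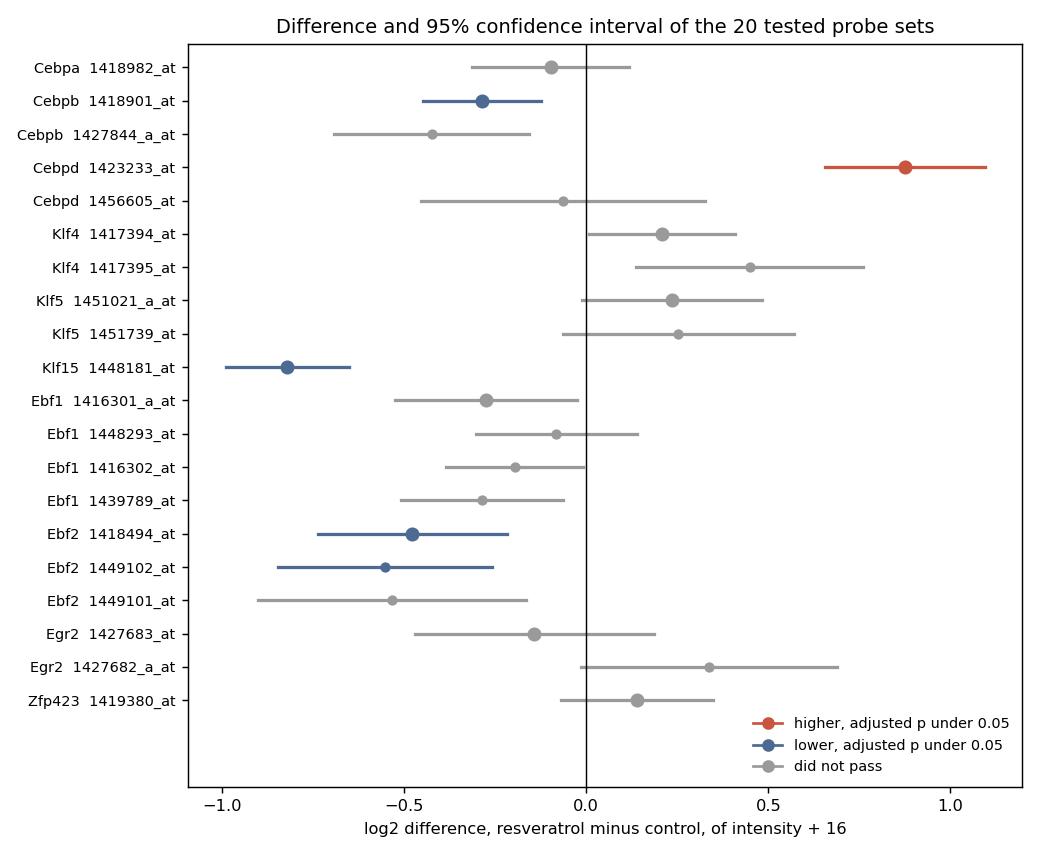
Log2 difference, resveratrol minus control, of the 20 tested probe sets with 95% confidence intervals, where larger points are the brightest probe set of a gene and colours mark those that passed. Cebpd at 0.87 and Klf15 at -0.82 lie farthest from 0, and the 3 Ebf2 probe sets lie close together between -0.55 and -0.48.

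Further genes of the same families went both ways. Of 22 further C/EBP, KLF, EBF and EGR genes 19 were tested, 1 was higher, 4 were lower and 14 did not pass, with a median of -0.06. Over all genes tested, 5.32% were higher and 5.21% lower, with a median of 0.0194. Ddit3, the C/EBP relative CHOP, which forms inactive partners with other C/EBPs, fell from 618 ± 73.7 to 426 ± 24.7 (SD, n = 3), a log2 difference of -0.51 (adjusted p = 0.00749). Cebpg, a C/EBP without an activation domain, had 768, 786 and 789 in control and 619, 606 and 615 in treated samples at its brightest probe set (-0.34, adjusted p = 0.0105), but -0.02 and 0.14 at its other 2, and the mean of the 3 did not pass (-0.08, adjusted p = 0.523). Klf9, a pro-adipogenic KLF, fell by 0.30 (adjusted p = 0.0298) at its brightest probe set, with a mean over its probe sets of -0.17 (adjusted p = 0.198). This Klf9 call was also lost without a filter (adjusted p = 0.0597), without an intensity trend (0.117), with the replicate block (0.0535) and in 4 of 6 fits with an array left out, those without control replicate 1 or 2 or resveratrol replicate 1 or 2 (0.0771 to 0.132). Klf16 rose by 0.52 (adjusted p = 0.0216), a call lost without a filter (0.0528), without an intensity trend (0.0688), and without control replicate 2 (0.086), resveratrol replicate 2 (0.0991) or resveratrol replicate 3 (0.0543). Klf10, named after its values were seen, had -0.29 (adjusted p = 0.0349, and 0.0767 with the spike block).

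Among other regulators known to promote adipogenesis, 2 of 13 were higher, 2 lower and 9 did not pass, with a median of -0.05. The shares over all genes tested, for this list and the restraining one below, were 5.32% higher and 5.21% lower. Rxra, the partner of PPAR gamma, rose from 565 ± 41.9 to 752 ± 29.2 (SD, n = 3; log2 difference 0.41, adjusted p = 0.00953), and E2f1, a cell cycle factor that induces Pparg early, by 0.41 (adjusted p = 0.0262). The E2f1 call was lost without an intensity trend (adjusted p = 0.0728) and without control replicate 2 (0.063), control replicate 3 (0.0768), resveratrol replicate 1 (0.11) or resveratrol replicate 3 (0.0684). Klf9 is the third gene of this list that passed. Creb1, the gene of CREB, had 208, 213 and 243 in control and 150, 150 and 186 in treated samples (-0.42, adjusted p = 0.0392). A second Creb1 probe set also passed at -0.45, another had 0.22 (adjusted p = 0.454), and the mean of its probe sets was -0.12 (adjusted p = 0.546). The call of the brightest was also lost without a filter (adjusted p = 0.0803), without an intensity trend (0.104), and without control replicate 2 or 3 or resveratrol replicate 1 or 2 (0.0908 to 0.141). Pparg, the gene of PPAR gamma and named after its values were seen, had 2524, 2482 and 2615 in control and 2035, 2262 and 2054 in treated samples, lower without overlap, but its -0.26 ± 0.08 did not pass (adjusted p = 0.061). Of 15 regulators known to restrain adipogenesis, 13 were tested, 2 were higher, 2 lower, among them Ddit3, and 9 did not pass. Zfp521, the antagonist of ZFP423 and EBF1, had 172, 162 and 177 in control and 264, 273 and 240 in treated samples, without overlap (0.56 ± 0.09, adjusted p = 0.00339). Its second probe set had 0.16 (adjusted p = 0.679) and the mean of both 0.36 (adjusted p = 0.0609). Id3, an inhibitor of basic helix-loop-helix factors, rose by 1.23 (adjusted p = 4.88e-05), and Foxo1, a brake on Pparg, had -0.43 (adjusted p = 0.0247, and 0.0578 with the spike block). The Foxo1 call was also lost without a filter (adjusted p = 0.0618), without an intensity trend (0.101) and in each fit with an array left out (0.0566 to 0.103) except the one without control replicate 3. Without an intensity trend in the fit, 0 of the family genes and 0 of the promoting regulators passed, and 2 of the restraining ones did. Without control replicate 2 these counts were 2, 1 and 3, without resveratrol replicate 1 they were 3, 1 and 3, and without resveratrol replicate 2 they were 2, 2 and 3.

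Genes known as targets of KLF15 and brown-type genes linked to EBF2 were mostly lower, in lists drawn up with earlier results of these data known. All 4 tested genes of the 6 known as KLF15 targets in adipocytes, muscle, heart or liver fell, with a median of -1.04. Over all genes tested, 5.21% were lower and the median was 0.0194. Gpt, alanine aminotransferase, had 884, 780 and 812 in control and 344, 335 and 258 in treated samples (-1.37 ± 0.11, adjusted p = 2.81e-05). Bcat2, the mitochondrial branched-chain aminotransferase, had 1816, 1701 and 1528 against 1095, 1059 and 888 (-0.72 ± 0.10, adjusted p = 0.00113). Prodh, proline dehydrogenase, had 79.8, 112 and 95.5 against 36.8, 66.5 and 32.7 (-0.90 ± 0.20, adjusted p = 0.0199). The treated arrays were below all controls for each of these 3. The fourth is Slc2a4, the GLUT4 gene, at -1.19 and -1.38 in its 2 probe sets. Acss1 and Tat were too dim to test. Prodh did not pass without a filter (adjusted p = 0.0712) or without an intensity trend (adjusted p = 0.0672), nor without control replicate 2 or 3 or resveratrol replicate 1 or 3 (adjusted p from 0.0505 to 0.084).

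Of 9 brown-type genes linked to EBF2, 5 were tested and 4 fell. The other, Dio2, did not pass, with means of 56.6 in control and 59.8 in treated samples (0.08, adjusted p = 0.86). Cox7a1 fell by 2.50, Elovl3, a fatty acid elongase, by 0.65 and Ppargc1a, the mitochondrial coactivator, by 0.60 on the log2 scale. Cox8b, a subunit of cytochrome oxidase as is Cox7a1, had 192, 114 and 162 in control and 13, 4.4 and 4.7 in treated samples (adjusted p = 1.57e-05). These treated values lie below the added 16, so the size of the fall depends on the offset, at -2.87 here, -4.34 with an offset of 1 and -1.61 with 64. They are as low as those of untested probe sets, so Cox8b passed the filter on low values only through its control arrays. It is part of the count and median of this list. Without a filter Cox8b also passed (adjusted p = 0.000723). Cox7a1 had 330, 294 and 284 against 38.4, 44.1 and 38.6 (adjusted p = 6.93e-07). Elovl3 had 64.6, 65.6 and 51.2 in control and 38.5, 36.4 and 24.2 in treated samples (adjusted p = 0.0392, and 0.0775 with the spike block). Its call was also lost without a filter (adjusted p = 0.112), without an intensity trend (0.06) and in each fit with an array left out (0.059 to 0.127) except the one without control replicate 3, and its difference was -0.36 with an offset of 64. With only the brightest 40% of probe sets kept, 2 of these genes passed, Cox7a1 and Ppargc1a. Cox8b and Elovl3 were then removed by the filter and not tested. Ucp1, Cidea, Prdm16 and Ppara, which include the defining brown fat markers, did not pass the filter on low values. Prdm16 had a higher mean with resveratrol, and Ucp1, Cidea and Ppara had lower ones. Of 16 tested targets of C/EBP alpha or PPAR gamma, 9 fell, none rose and 7 did not pass, with a median of -0.42. Those 7 were Lipe, Scd1, Dgat2, Adipoq, Fabp4 and Lpl, with lower means, and Agpat2, with a higher one. Within the arrays of brighter spikes Scd1, Adipoq, Fabp4 and Lpl had -0.50, -0.34, -0.17 and -0.15. Within those of dimmer spikes they had 0.004, 0.005, 0.04 and 0.14. Lipe and Dgat2 were lower and Agpat2 higher within both sets. Of the 16, Slc2a4, Pck1, Gpd1 and Acaca had the smallest p, at -1.19, -1.92, -1.07 and -0.64. They encode GLUT4, the PEPCK of glyceride synthesis, glycerol-3-phosphate dehydrogenase and acetyl-CoA carboxylase. Pck1 had 81.1, 74.3 and 78.8 in control and 6.3, 8.8 and 12 in treated samples. The latter again lie below the added 16, and the difference was -3.02 with an offset of 1 and -0.96 with 64. Pck1 too passed the filter only through its control arrays, and it is part of the count and median of its list. Without a filter Pck1 also passed (adjusted p = 0.00127). Slc2a4 stands in both this list and that of KLF15. The count of 9 was 14 with quantile normalization, 4 without an intensity trend, 6 without control replicate 2, and 5 without resveratrol replicate 2. Across all genes tested 5.21% were lower.

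Genes known to be induced by glucocorticoids went both ways. Of 9, 3 were higher, 2 lower and 4 did not pass, with a median of -0.02. Over all genes tested, 5.32% were higher and 5.21% lower. Fkbp5, a chaperone of the steroid receptor, had 605, 562 and 565 in control and 911, 933 and 802 in treated samples (0.60 ± 0.08, adjusted p = 0.00119). Sgk1, a kinase, rose by 0.64 (adjusted p = 0.000791) and Tsc22d3, the gene of GILZ, by 0.48 (adjusted p = 0.00831). The Tsc22d3 call was lost without an intensity trend (adjusted p = 0.0646), a setting under which 3 of the 9 genes passed. Mt2, a metallothionein, had -0.55 (adjusted p = 0.00137), and Klf9 fell as given above. Cebpd and Klf15, which glucocorticoids are known to induce as well, went in opposite directions in these samples.

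**Figure D3:**
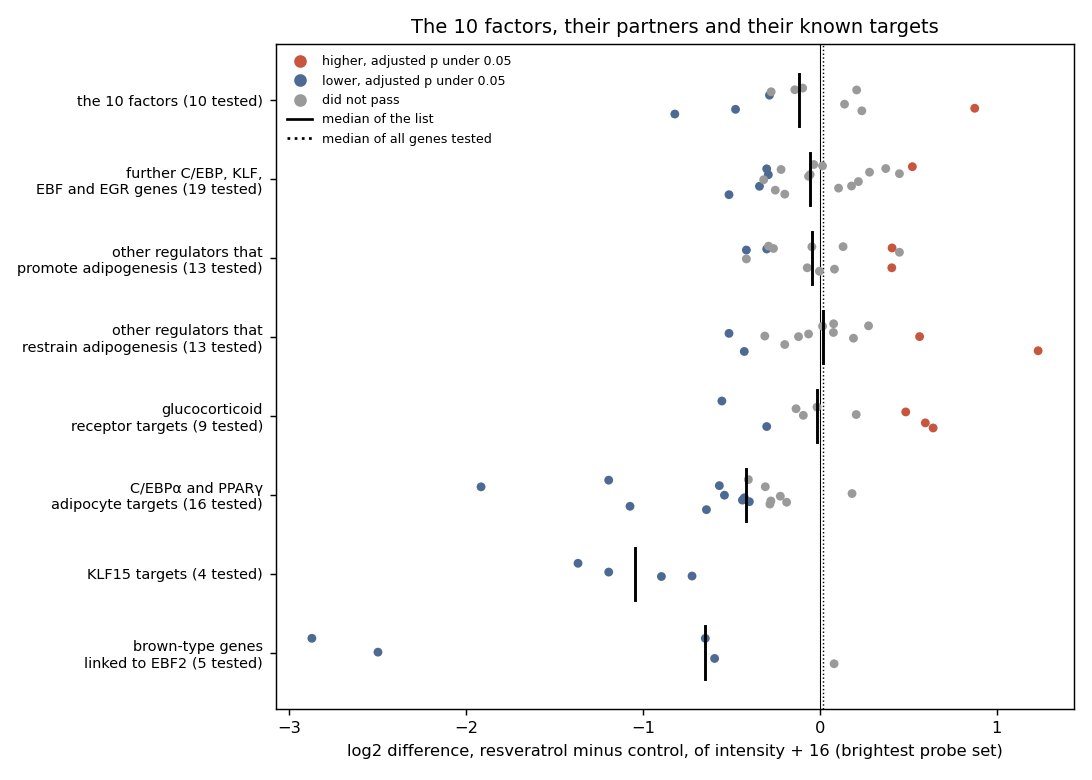
Log2 difference of each tested gene in the 10 factors and in 7 lists of related genes (brightest probe set, points), with the median of each list as a black bar and that of all genes tested as a dotted line. The KLF15 targets (median -1.04), brown-type genes (-0.65) and C/EBP alpha and PPAR gamma targets (-0.42) lie mostly to the left of 0, and the regulators of adipogenesis lie on both sides.

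Genes whose levels ran most alike over the 6 arrays were listed for each factor that passed, as a description in which the difference between the groups is part of the likeness. For Klf15 they were 2610528A11Rik (Pearson r = 0.9993), Acadm, the medium-chain acyl-CoA dehydrogenase (r = 0.9993) and Csrp2 (r = 0.9985). For Cebpd they were Id1, a relative of Id3 (r = 0.9955), Wrnip1 (r = 0.995) and Nprl3 (r = 0.9946). Ebf2 ran closest to Gbe1, the glycogen branching enzyme (r = 0.9988), Larp1b (r = 0.9968) and Rap2c (r = 0.9966). Cebpb ran closest to Ap3m1 (r = 0.9972) and to Immt and Ghitm, proteins of the mitochondrial inner membrane (r = 0.9966 and 0.9939). The 4 sets of 3 genes shared no gene.

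**Figure D4:**
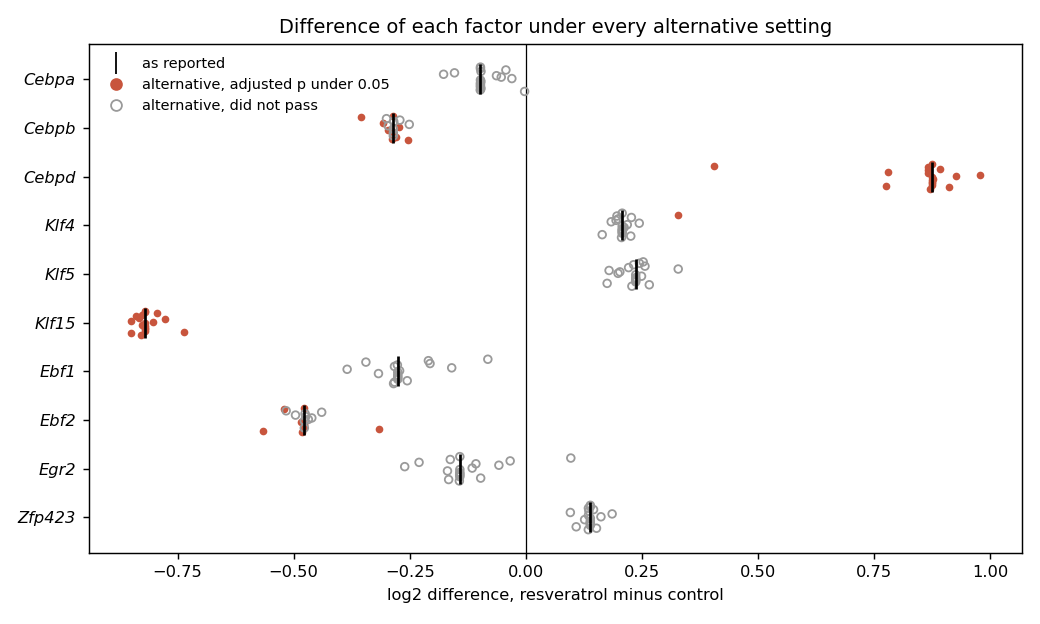
Log2 difference of the 10 factors under each alternative setting (circles, filled where it passed) beside the value as reported (black bars). Cebpd and Klf15 passed under each of 18 alternatives, Cebpb under 10 and Ebf2 under 9, and only Egr2 has a value on the other side of 0.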

How the data were processed

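Transcript levels were measured on 6 one-colour arrays, 3 control and 3 resveratrol. Each deposited value is a linear intensity for 1 probe set. That the authors scaled each array is read from the values: the mean without the top and bottom 2% is 150 in every column. Control replicate 1 was deposited with more decimals: 0.789% of its values have at most 1 decimal, against 100% on each other array. The reason is not stated. No label names the software, and the build behind the array is not stated. Of 45037 probe sets left after 64 controls, the platform annotation names 1 gene for 34945, several for 932 and none for 9160. Sequences carry the build of the RefSeq table.

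Intensities were log2-transformed after adding 16, which understates changes of dim probe sets. A filter kept 60% of probe sets, those brightest on average. They were compared with limma 3.58.1 in R 4.3.3 (lmFit, eBayes with an intensity trend, 2-sided, Benjamini-Hochberg), a procedure tested on simulated data. The brightest probe set stands for its gene. Named were all members and, from each other list, up to 4 genes with the smallest p. Figures were drawn with matplotlib 3.10.9.

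The 10 genes, the lists and the spike sets were chosen with earlier results of these data known, and the ratios between members after seeing the data. Other settings tried were quantile normalization, an added 1 or 64, filters of none or 40%, fits without trend or with robust variances or array weights, blocks for replicate number and spike set, gene means over probe sets, dropping member probe sets with the suffix s, x or a, and dropping each array.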

Additional observations from a re-analysis of the deposited data

How the results depend on the processing

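Cebpd and Klf15 kept their direction and passed under each of 18 alternatives, at 0.41 to 0.98 and -0.85 to -0.74. For Klf15, with 1 probe set, the mean over probe sets repeats its difference. No probe set of either gene has the suffix s, x or a, so dropping those could not change their differences. Cebpb passed under 10 of 18 and Ebf2 under 9 of 18, both lower throughout. Of the 20 probe sets, 5 passed as reported, 2 without a filter, 3 with the replicate block, 3 with the spike block and 2 to 4 with an array left out. Of the 10 genes, 4 passed as reported, 2 without a filter, 2 with the replicate block and 2 to 3 with an array left out. Over all probe sets 2209 passed, 1396 without a filter, 861 without an intensity trend, and 1127 to 1956 with an array left out. Over all genes 1330 passed, 848 without a filter, 518 without a trend, and 694 to 1170 with an array left out. Of the listed genes 31 passed, 14 without a trend, and 20 to 31 with an array left out. The cause was not tested. Signs are compared here over these settings, not within the spike sets. A value on the other side of 0 arose for the dim Cebpd probe set 1456605_at, with the spike block (0.0305), without control replicate 2 (0.1065) and without resveratrol replicate 3 (0.0451), so leaving out 1 array moved it between -0.17 and 0.11, for Egr2 with the mean of its probe sets (0.0968), and for Klf4 over Klf5 without control replicate 1 (0.0418) or 2 (0.0046), between -0.13 and 0.04 over the 6 fits. None of these had passed. Replicates sharing a number deviated together with r = -0.06, -0.02 and 0.09, and 2 of 6 arrays correlated best with their own number. The labels do not say whether equal numbers mark matched arrays, and with so few arrays these values do not settle it. For the 25 other named genes, 369 of 422 alternatives kept direction and call, 53 kept the direction only, and 0 turned. The level of the dim probe sets, near or below 16, limits what can be read from them.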
